A study of Mus musculus with 8 samples.

Results

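The cadherins examined here were 10 genes of the family that joins neighbouring cells: *Cdh1*, *Cdh2*, *Cdh3*, *Cdh4*, *Cdh5*, *Cdh6*, *Cdh11*, *Cdh13*, *Cdh15* and *Cdh20*. They were matched by symbol and are 10 of the 53465 genes in the table. The family was chosen by a measured value, because *Cdh20* was far lower in one genotype, so the values of *Cdh20* are a description and carry no test. RNA came from heart ventricles of mouse embryos at embryonic day 15.5 in 2 genotypes. The group called *Nrg1GOF* carries an extra *Nrg1* gene at the Rosa26 locus that Cre recombinase switches on, and the other group is wild type (WT), with 4 libraries each. *Nrg1* encodes neuregulin-1, a secreted ligand of the ErbB receptors. The genotype label writes the Cre driver as Nkx5.5-Cre and the series title as Nkx2.5-Cre. *Nkx2.5* is a transcription factor gene of cardiac progenitors, so the transgene is expected in descendants of those cells and the ligand can reach other cells by secretion. Whether WT embryos carried Cre or the transgene alone is not given in the labels, and neither are strain, sex or litter.

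Classical cadherins bind a like molecule on the next cell with their outer domains when calcium is present. Their tails hold p120-catenin and beta-catenin, and alpha-catenin links these to actin. In heart muscle the junctions gather at the intercalated disc, where the ends of cardiomyocytes meet and where desmosomes anchor intermediate filaments. *Cdh1* (E-cadherin), *Cdh2* (N-cadherin), *Cdh3* (P-cadherin), *Cdh4* (R-cadherin) and *Cdh15* (M-cadherin) are type I members. *Cdh5* (VE-cadherin), *Cdh6*, *Cdh11* and *Cdh20* are type II members, and *Cdh13* (T-cadherin) has no cytoplasmic tail and is held by a lipid anchor.

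Library totals ran from 8038641 to 26786039 counts. *Nrg1GOF* library 4 was the shallowest, and the other libraries held at least 18754259. *Nrg1* itself measured 59.7 to 63.7 CPM (counts scaled to the size of the library) in the *Nrg1GOF* libraries and 3.07 to 4.47 in WT, so all 8 libraries matched their labels. WT libraries 1 and 2 resembled each other (Pearson r 0.989 over the tested genes), as did WT libraries 3 and 4 (r 0.991), while r across these pairs was 0.980. The labels name no batch for this. Mitochondrial genes took 3.10 to 4.35% of counts in *Nrg1GOF* and 4.30 to 5.78% in WT.

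Of the 10 cadherins, 8 had enough counts to be tested, and the lowest count of a tested member in a library was 12. *Cdh1* and *Cdh15* were below the filter. Beside *Cdh20*, 7 members were tested, and 4 of them were called changed at an adjusted p under 0.05 (edgeR quasi-likelihood test, Benjamini-Hochberg adjustment over 15580 genes). Across all tested genes 28.7% were called. *Cdh11* and *Cdh4* rose, where 15.9% of all tested genes were called higher, and *Cdh2* and *Cdh3* fell, where 12.8% were called lower. Of these 7 members, 5 had groups that did not overlap (2 higher and 3 lower in *Nrg1GOF*), against 30.7% of all tested genes, 16.6% higher and 14.1% lower. Their median log2 fold change, *Nrg1GOF* over WT, was -0.13, against -0.01 over all tested genes. CPM values below are scaled for library size and composition by the TMM method, and log2 fold changes carry a standard error (SE) and a 95% confidence interval. Ventricle RNA mixes many cell types, and fewer cells of a type and less RNA per cell cannot be told apart in it.

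*Cdh20* is a type II cadherin known mainly from the nervous system. The gene (ENSMUSG00000050840) lies on the plus strand of chromosome 1 at 104768529 to 104995481 in GRCm38. WT libraries 1 to 4 held 296, 192, 223 and 212 counts of it, or 11.3, 10.5, 9.02 and 8.69 CPM. *Nrg1GOF* libraries 1 to 4 held 49, 38, 45 and 12 counts, or 2.22, 1.81, 1.92 and 1.50 CPM. The lowest WT library was far above the highest *Nrg1GOF* library, and WT libraries 1 and 2 were above WT libraries 3 and 4. Mean values were 9.87 ± 1.23 CPM for WT and 1.86 ± 0.299 CPM for *Nrg1GOF* (SD over 4 libraries). On the log2 scale this was -2.37 (SE 0.15, interval -2.71 to -2.02). By log2 fold change it stood at place 17 from the lowest of the 15580 tested genes. The estimate was -2.51 against WT libraries 1 and 2 only, and -2.21 against WT libraries 3 and 4 only. It was -2.30 without the shallow *Nrg1GOF* library 4. The value is given without a p because it was the reason for choosing the family. Its SE and interval do not allow for that choice and are no test either.

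The stretch around the annotated start of *Cdh20* is shown because this gene had the largest difference of the family. RefSeq's GRCm38.p6 table gave promoters for 3 of the 10 members (*Cdh20*, *Cdh15* and *Cdh6*), each from 250 bases before to 50 bases after the start. Capitals mark the match to the E-box CANNTG, the short motif bound by basic helix-loop-helix factors. The window is chr1:104768270-104768569 on the plus strand.
*Cdh20*: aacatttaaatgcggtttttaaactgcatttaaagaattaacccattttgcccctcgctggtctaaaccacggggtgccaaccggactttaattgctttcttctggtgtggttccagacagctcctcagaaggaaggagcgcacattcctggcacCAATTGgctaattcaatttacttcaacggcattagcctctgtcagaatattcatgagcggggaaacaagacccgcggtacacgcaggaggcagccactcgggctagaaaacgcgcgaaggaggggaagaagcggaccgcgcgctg
The 300 bases held 1 E-box, and 72.3% of the 32851 promoters of this length in the table held at least 1. The window held no CACCTG, the E-box form bound by Snail and ZEB factors, on either strand, and 20.2% of promoters did. It held no AGATAA, 1 form of the motif of the GATA family, which 11.2% of promoters held. Other forms of that motif were not sought. GGAA, the core of ETS sites, occurred 5 times on both strands together, and 96.0% of promoters held it. These are matches of letters and say nothing of binding. The windows of *Cdh15* and *Cdh6* held 4 and 1 E-boxes and no CACCTG.

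The genes whose pattern was most like that of *Cdh20* over the 8 libraries were *Hlf* (Pearson r of log2 CPM 0.996, log2 fold change -1.19), *Atp2a2* (0.993), *Dixdc1* (0.993), *Anln* (0.993) and *Gng2* (0.993). *Atp2a2* encodes the calcium pump of the cardiac sarcoplasmic reticulum. The libraries form 2 genotype groups, so such an r is carried by the difference between them, and 295 of 12183 compared genes had an r over 0.95. With the genotype means taken out, the nearest genes were others: *Atad5* (0.991), *Slc9a9* (0.988), *Impa1* (0.986), *Caprin1* (0.984) and *Chic1* (0.980).

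*Cdh2* and *Cdh3*, both type I members, fell in *Nrg1GOF*. *Cdh2* (ENSMUSG00000024304, chromosome 18, 16588877 to 16809246, minus strand) is the main adhesion molecule between cardiomyocytes at the intercalated disc. It measured 700, 686, 696 and 675 CPM in WT libraries 1 to 4 and 510, 480, 456 and 497 CPM in *Nrg1GOF* libraries 1 to 4. Every *Nrg1GOF* library was below every WT library, and the gap between the groups was wider than the range inside either. The means were 689 ± 10.9 and 486 ± 23.4 CPM (SD, n = 4 each), 1.42-fold lower in *Nrg1GOF*. The log2 fold change was -0.51 (SE 0.05, interval -0.62 to -0.39, edgeR adjusted p = 0.000122).

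*Cdh3* (ENSMUSG00000061048, chromosome 8, 106510891 to 106557297, plus strand) encodes P-cadherin, best known from placenta and basal epithelia. Its WT values were 58.4, 58.5, 61.03 and 53.4 CPM, and its *Nrg1GOF* values 41.8, 38.6, 37.5 and 49.1 CPM. The groups did not overlap, though *Nrg1GOF* library 4 came nearest to WT. The log2 fold change was -0.48 (SE 0.08, interval -0.67 to -0.29, edgeR adjusted p = 0.00236), and without that library it was -0.55. Both genes were called in all 20 alternative fits, with adjusted p up to 0.00494 for *Cdh2* and 0.0214 for *Cdh3*.

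For *Cdh2* the most alike genes over the 8 libraries were *Trim55* (r 0.998, log2 fold change -0.57), *Pygb* (0.997), *Nudt4* (0.996), *Lrpprc* (0.996) and *Dbt* (0.995). *Trim55* encodes a muscle ubiquitin ligase of the sarcomere and *Pygb* a glycogen phosphorylase. Within the genotypes the nearest gene was *Acsl3* (r 0.974).

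*Cdh11* and *Cdh4* rose in *Nrg1GOF*. *Cdh11* (ENSMUSG00000031673, chromosome 8, 102632095 to 102785642, minus strand) is the type II cadherin of mesenchyme and fibroblasts. WT libraries 1 to 4 measured 147, 141, 121 and 121 CPM, and *Nrg1GOF* libraries 1 to 4 measured 236, 216, 199 and 223 CPM. The groups lay apart, and the WT values split into the same pairs as the libraries did over all genes. The means were 132 ± 13.5 and 219 ± 15.3 CPM, 1.65-fold higher in *Nrg1GOF*. The log2 fold change was 0.72 (SE 0.08, interval 0.54 to 0.91, edgeR adjusted p = 0.000205). Against WT libraries 1 and 2 only it was 0.60, and against WT libraries 3 and 4 only 0.86, called both times.

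*Cdh4* (ENSMUSG00000000305, chromosome 2, 179442431 to 179899373, plus strand) encodes R-cadherin, first described in retina. It was low, at 2.52, 3.82, 2.87 and 3.44 CPM in WT and 4.76, 4.00, 4.32 and 5.13 CPM in *Nrg1GOF*. The groups did not overlap, but WT library 2 was close to *Nrg1GOF* library 2. Its log2 fold change was 0.52 (SE 0.17, interval 0.14 to 0.90, edgeR adjusted p = 0.0467). This call was lost in 12 of 20 alternative fits, including 7 of the 8 that left out a library. The exception was the fit without WT library 2, and the direction held in all 20.

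**Figure D1:**
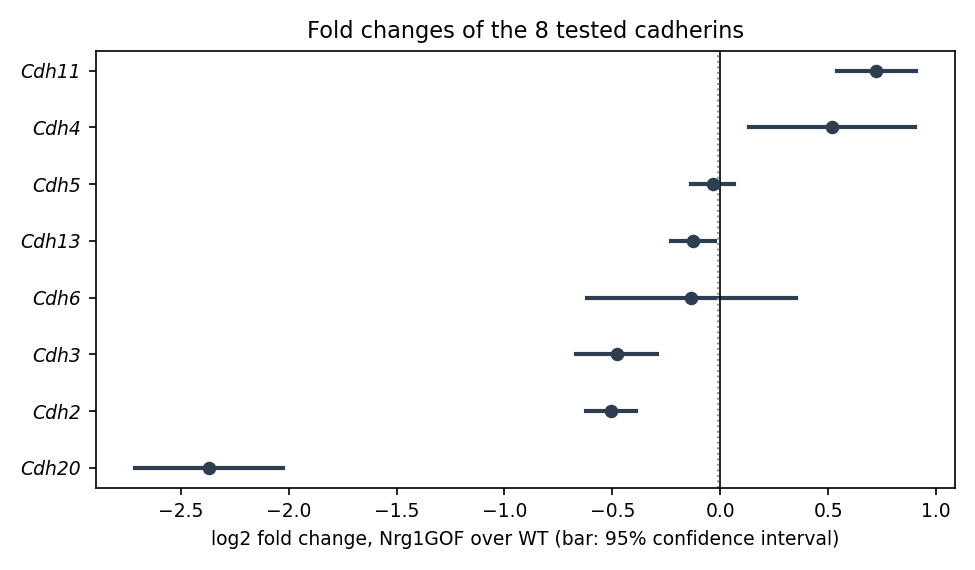
Log2 fold change (horizontal axis, *Nrg1GOF* over WT) of the 8 tested cadherins, with points for the edgeR estimate and lines for the 95% confidence interval, and a dotted line at the median of all tested genes. *Cdh20* sits at -2.37, *Cdh11* at 0.72, and the intervals of *Cdh5* and *Cdh6* span 0. The interval of *Cdh20* does not allow for its being the reason the family was chosen.

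*Cdh5*, *Cdh13* and *Cdh6* did not pass the threshold. *Cdh5* (ENSMUSG00000031871, chromosome 8, 104101625 to 104144511, plus strand) is the adhesion molecule of endothelial junctions. It measured 319, 321, 338 and 330 CPM in WT and 315, 318, 316 and 327 CPM in *Nrg1GOF*, and the groups overlapped. Its log2 fold change was -0.04 (SE 0.05, edgeR adjusted p = 0.608), with an interval of -0.14 to 0.07. With library totals alone as scaling the sign turned, at 0.0069. *Rab11b*, a GTPase of recycling endosomes, was the gene most like *Cdh5* over the 8 libraries (r 0.984) and also with the genotype means taken out (r 0.994).

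*Cdh13* (ENSMUSG00000031841, chromosome 8, 118283733 to 119324921, plus strand) is a receptor for the hormone adiponectin. Its WT values were 111, 115, 110.04 and 112 CPM, against 105, 101, 99.3 and 105 CPM in *Nrg1GOF*. The groups did not overlap, with a small gap between them. The log2 fold change was -0.13 (SE 0.05, interval -0.23 to -0.02), and the edgeR adjusted p of 0.0672 missed the threshold. It was called in 0 of the 20 alternative fits, where the adjusted p ran from 0.0533 to 0.280. *Adipoq*, the adiponectin gene, had 0 counts in every library.

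*Cdh6* (ENSMUSG00000039385, chromosome 15, 13028701 to 13173675, minus strand) is known from kidney and neural crest development. It measured 9.40, 8.95, 5.70 and 6.52 CPM in WT and 6.76, 7.86, 8.25 and 4.38 CPM in *Nrg1GOF*. WT libraries 1 and 2 held the highest values and *Nrg1GOF* library 4 the lowest, and the groups overlapped widely. Its log2 fold change was -0.13 (SE 0.22, interval -0.62 to 0.35, edgeR adjusted p = 0.696). Its sign turned without *Nrg1GOF* library 4, at 0.0091, and against WT libraries 3 and 4 only, at 0.20.

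*Cdh1* and *Cdh15* were near or at the limit of detection. *Cdh1* (ENSMUSG00000000303, chromosome 8, 106603351 to 106670246) is the cadherin of epithelia and *Cdh15* (ENSMUSG00000031962, chromosome 8, 122847966 to 122867397) that of skeletal muscle precursors. *Cdh1* had 3 to 6 counts in each library and 35 in all. *Cdh15* had 0 to 3 counts and 12 in all, with a count above 0 in 7 of 8 libraries. In *Nrg1GOF* library 4 a count of 0 allows up to 0.375 CPM, taking 3 counts as the limit, and in the other libraries 3 counts come to 0.115 to 0.164 CPM. No change of either could be assessed at this depth. Markers of the cell types in which they are usually found were low too. Of 14 lung and gut epithelium genes 3 were tested and 2 called higher. *Krt7*, an epithelial keratin, measured 6.73 CPM in WT and 10.4 in *Nrg1GOF*, and its call was lost in 11 of 20 alternative fits. The claudin *Cldn3* had 0 to 3 counts in each WT library and 8 to 36 in each *Nrg1GOF* library, so it passed the filter only through the group where it was high, and its call is no evidence for the list. The list summed to 7.97 to 10.4 CPM in WT and 10.9 to 17.8 in *Nrg1GOF*, with *Sftpc* and *Krt5* at 0 counts throughout. Of 9 skeletal muscle precursor genes 2 were tested and 0 called, and the list summed to 2.52 to 3.89 CPM in WT and 2.95 to 3.59 in *Nrg1GOF*, with *Myod1* and *Pax7* at 0 counts throughout.

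Genes annotated across the members could in principle share their reads. The highest count of any such overlapping gene in a library was 8, for *Gm45257* inside *Cdh11*. Chromosome 8 carries 6 of the 10 members, and these moved in different directions: *Cdh11* rose, *Cdh3* fell, *Cdh5* and *Cdh13* did not pass, and *Cdh1* and *Cdh15* were not tested.

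Levels of different cadherins were compared per length, as counts divided by the longest annotated transcript and scaled to the same sum over all genes in every library (TPM-like values). *Cdh2* was highest in WT at 336 ± 6.07 (SD, n = 4), followed by *Cdh5* at 193 ± 5.69, *Cdh13* at 58.0 ± 1.46, *Cdh11* at 55.4 ± 5.63 and *Cdh3* at 31.2 ± 1.88. *Cdh20* (5.82), *Cdh6* (2.21), *Cdh4* (1.17), *Cdh1* (0.110) and *Cdh15* (0.0391) were lower still. In this WT order only *Cdh13* and *Cdh11* were neighbours whose libraries overlapped. In *Nrg1GOF* the order was *Cdh2* (252), *Cdh5* (201), *Cdh11* (97.2), *Cdh13* (56.6), *Cdh3* (23.9), *Cdh6* (2.11), *Cdh4* (1.79), *Cdh20* (1.17), *Cdh1* (0.135) and *Cdh15* (0.0623). There *Cdh11* stood above *Cdh13* in every library, *Cdh6* and *Cdh4* overlapped, as did *Cdh1* and *Cdh15*, and *Cdh20* was below *Cdh4*.

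**Figure D2:**
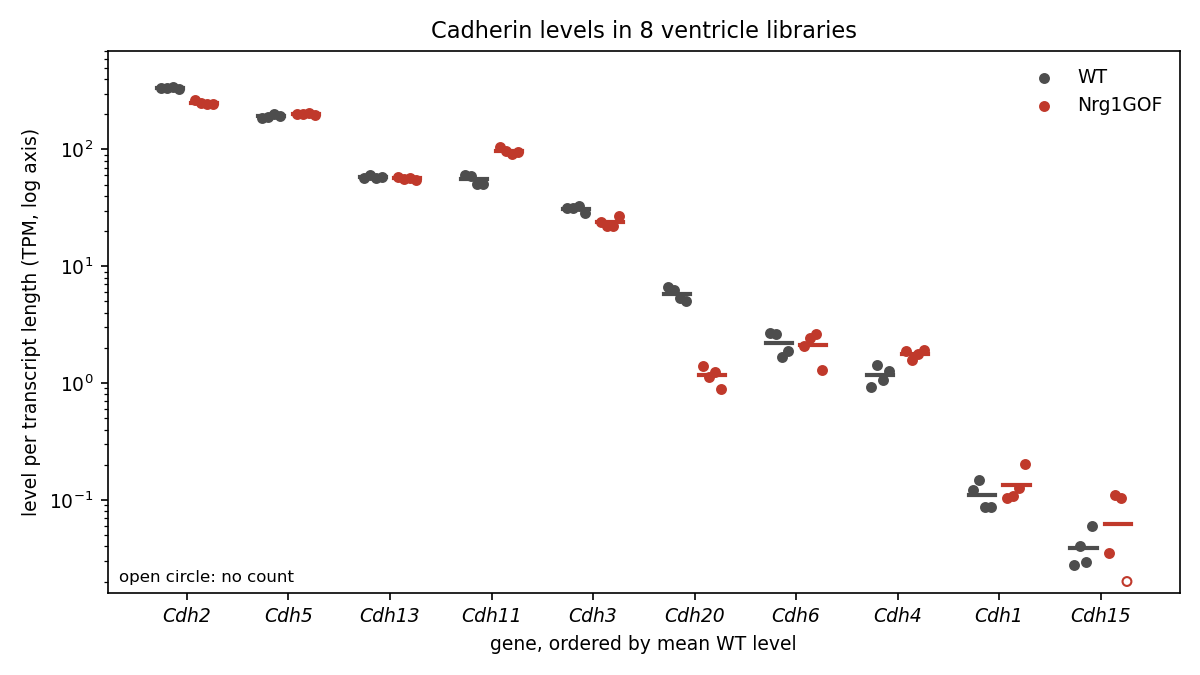
TPM-like level (vertical log axis, counts per transcript length) of the 10 cadherins, ordered by mean WT level, with 1 point a library in the 4 WT and 4 *Nrg1GOF* libraries, a bar at each group mean and an open circle for a library with no count. *Cdh20* sits between *Cdh3* and *Cdh6* in WT, with a mean of 5.82, and below *Cdh4* in *Nrg1GOF*, with a mean of 1.17.

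Read as shares of the summed TPM-like level of the 10 members, *Cdh2* held 49.2% ± 0.257 in WT and 39.6% ± 0.557 in *Nrg1GOF*. *Cdh11* held 8.10% ± 0.766 and 15.3% ± 0.576. *Cdh5* held 28.3% ± 0.923 and 31.6% ± 1.06, although its CPM differed little between the groups. Shares sum to the whole, so 1 member's share moves when another's level does. The sum itself was 684 ± 11.6 in WT and 635 ± 17.0 in *Nrg1GOF*. *Cdh3* held 4.56% and 3.76%, *Cdh13* 8.49% and 8.90%, and *Cdh20* 0.850% and 0.184%.

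**Figure D3:**
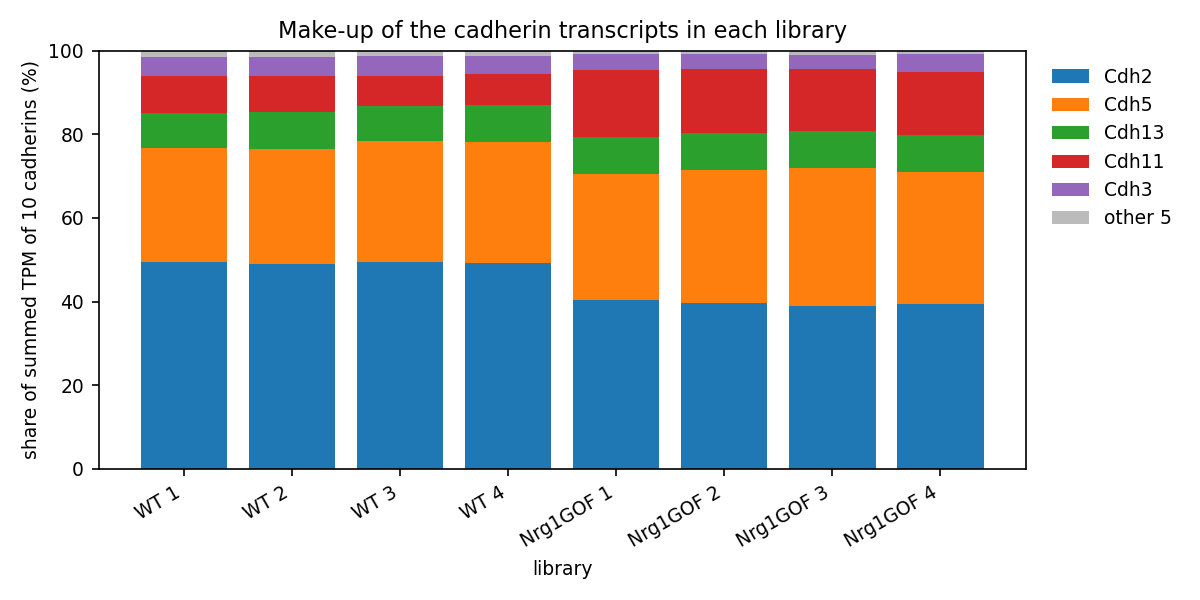
Share of the summed TPM-like level of the 10 cadherins (vertical axis, percent, from 0 to the whole) in each of the 8 libraries, 1 stacked bar a library and 1 colour a gene, the 5 lowest together in grey. The *Cdh2* block shrinks from 49.2% of the mean WT bar to 39.6% in *Nrg1GOF*, and the *Cdh11* block grows from 8.10% to 15.3%.

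The cytoplasmic partners of the cadherins were read next, in lists drawn up by role, beside the 28.7% of all tested genes that were called. Of 9 catenin genes, all tested, 1 rose and 3 fell, with a median log2 fold change of -0.09. *Ctnnb1* (beta-catenin) measured 906 ± 28.7 CPM in WT and 886 ± 31.3 in *Nrg1GOF*, a log2 fold change of -0.03 (edgeR adjusted p = 0.675). *Ctnnd1* (p120-catenin), which keeps cadherins at the membrane, had a log2 fold change of -0.09 (0.274). *Arvcf*, a p120 relative, fell from 80.6 ± 5.60 to 58.6 ± 5.51 CPM (log2 fold change -0.47, SE 0.08, edgeR adjusted p = 0.00155). *Jup* (plakoglobin, shared by adherens junctions and desmosomes) fell by 0.19 on the log2 scale (0.0446), a call lost in 15 of 20 alternative fits. *Ctnna1* (alpha-catenin) fell by 0.16 (0.0425), lost in 18 of 20.

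The other alpha-catenins were lower in level. *Ctnna3*, the heart form, had a log2 fold change of -0.29 (0.117). *Ctnna2*, the neural form, measured 1.87, 1.04, 0.202 and 0.656 CPM in WT and 2.18, 2.33, 3.59 and 2.63 CPM in *Nrg1GOF*. It rose by a log2 fold change of 1.50 (SE 0.49, edgeR adjusted p = 0.0449), and this call was lost in 9 of 20 fits. *Ctnna2* reached the filter's level of 0.449 CPM in 3 WT and 4 *Nrg1GOF* libraries, too few to pass on WT alone. The only catenin rise is therefore no evidence for that list. *Ctnnd2* and *Ctnnbip1*, an inhibitor of beta-catenin, did not pass, at log2 fold changes of 0.59 and 0.11.

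Desmosomal genes gave more falls than rises. Of 9 desmosomal cadherin genes 2 were tested, and *Dsg2* fell from 97.2 ± 6.13 to 75.3 ± 2.77 CPM (log2 fold change -0.37, SE 0.06, edgeR adjusted p = 0.00129). *Dsc2*, its partner in heart muscle, had a log2 fold change of -0.15 (0.171). Of 7 plaque genes 5 were tested and 4 fell, with a median of -0.28, where 12.8% of all tested genes were called lower. *Pkp4* fell from 254 ± 1.79 to 184 ± 3.97 CPM (-0.47, SE 0.04, edgeR adjusted p = 7.56e-05), *Perp* by 0.51 (0.000962) and *Pkp2*, the plakophilin of the intercalated disc, by 0.28 (0.00876). The *Pkp2* call was lost in 2 of 20 fits, with the WT pairs summed and against WT libraries 1 and 2 only. *Jup* is on this list as well, so 2 of the 4 calls held in every fit. The cardiomyocyte list, described with the other cell types, had a median of -0.43, and its part in these values was not tested. *Dsp* (desmoplakin), which ties the plaque to desmin, varied widely between libraries, with 1005 ± 208 CPM in WT and 1014 ± 126 in *Nrg1GOF* (log2 fold change 0.01, SE 0.14, 0.959).

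Of 20 genes that link junctions to actin 19 were tested, 5 rose and 5 fell, with a median of 0.11. Over all tested genes 15.9% were called higher and 12.8% lower. *Lmo7*, a LIM protein of the intercalated disc, fell from 694 ± 16.4 to 477 ± 13.0 CPM (-0.54, SE 0.05, edgeR adjusted p = 5.81e-05). *Nrap* and *Xirp1*, which sit where myofibrils meet the disc, fell by 0.40 (0.00206) and 0.39 (0.000522). *Tln2*, a talin that links integrins to actin, fell by 0.36 (0.0318), a call lost in 7 of 20 fits. *Xirp2*, a relative of *Xirp1*, rose from 7.22 ± 1.13 to 22.1 ± 4.49 CPM (1.61, SE 0.17, edgeR adjusted p = 0.000138), so these relatives moved in opposite directions. *Pdlim7* (0.73, 0.000658), *Lima1* (0.59, 0.000129) and *Nectin2* (0.48, 0.000223), an adhesion molecule that works beside cadherins, also rose.

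**Figure D4:**
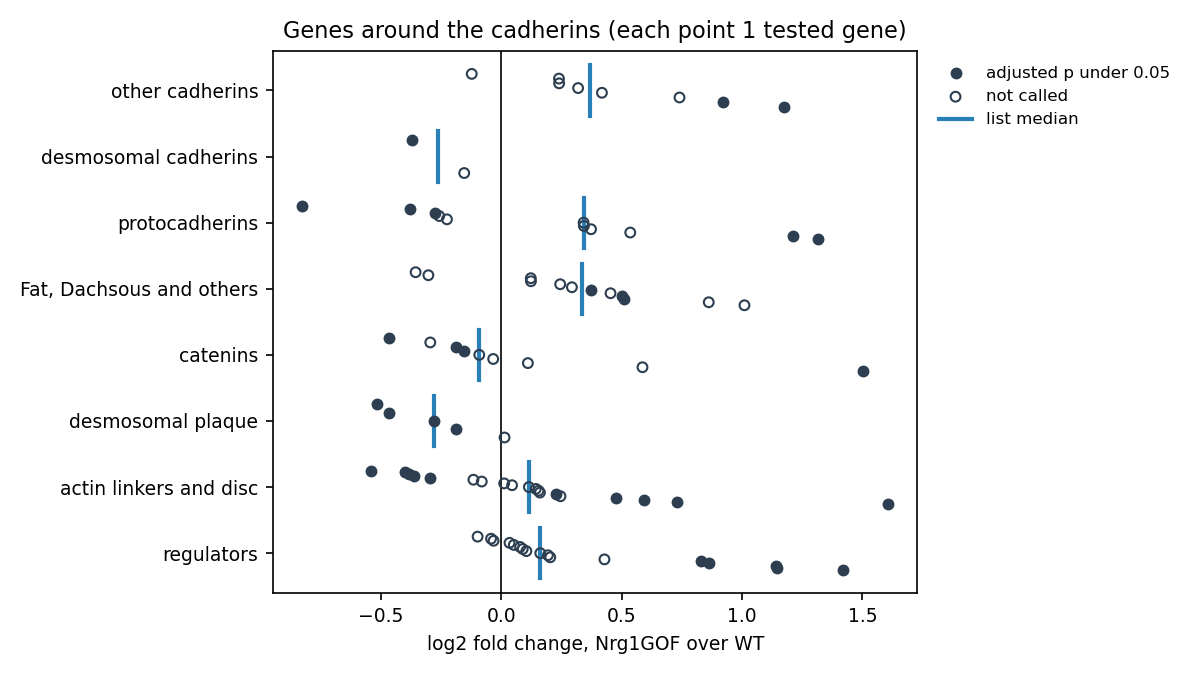
Log2 fold change (*Nrg1GOF* over WT) of the tested genes in each list of the cadherin superfamily, junction partners and regulators, 1 point a gene, filled where the edgeR adjusted p was under 0.05, with a blue line at each list's median. Points of the desmosome plaque list lie mostly left of 0, with a median of -0.28, and those of the regulators mostly right, with a median of 0.16.

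Other genes of the superfamily were mostly low in level. Of 53 listed, 33 were tested, 7 were called higher and 4 lower, or 33.3% called against 28.7% of all tested genes. The 7 include *Cdh19*, whose call is set aside below. This balance depended on the WT libraries: 3 rose and 7 fell against WT libraries 1 and 2 only, 10 rose and 5 fell against WT libraries 3 and 4 only, and 5 rose and 6 fell without WT library 4. Of 18 further cadherins 8 were tested, 2 were called higher and 0 lower. *Cdh10* went from 2.75 ± 0.673 to 5.17 ± 0.785 CPM (0.92, SE 0.20, edgeR adjusted p = 0.00726), a call lost in 1 of 20 fits. *Cdh19*, a type II cadherin of Schwann cell precursors, measured 0.355 CPM in WT and 0.789 in *Nrg1GOF*. With 7 to 10 counts in each WT library it too passed the filter only through *Nrg1GOF*, and its call was lost in 3 of the 18 fits it entered. The *Cdh19* call, 1 of the 2 among the further cadherins, is therefore no evidence for that list or for the 33.3%. The Schwann cell, neural crest and neuron list summed to 26.5 to 34.05 CPM in WT and 23.6 to 35.5 in *Nrg1GOF*. Among 12 protocadherins, 11 of them tested, 2 rose and 3 fell. *Pcdh20* rose from 2.53 ± 0.446 to 6.24 ± 0.607 CPM (1.32, 0.000316) and *Pcdh9* from 2.01 ± 0.427 to 4.55 ± 1.32 (1.21, 0.00486). *Pcdh19* (fell by 0.83, 0.0110), *Pcdh1* (by 0.38, 0.00284) and the endothelial *Pcdh12* (by 0.28, 0.00680, lost in 1 of 20 fits) were lower. Of 14 genes listed as large or atypical cadherins, with *Fjx1* among them, 12 were tested, 3 rose and 0 fell, where 15.9% of all tested genes were called higher. *Clstn1* rose by a log2 fold change of 0.37 (0.00111), *Dchs1*, a planar polarity cadherin, by 0.51 (0.0251), and *Fjx1* by 0.50 (0.0439). *Fjx1* is not itself a cadherin but a relative of the fly kinase that modifies Fat and Dachsous. The *Dchs1* call was lost in 7 of 20 fits and the *Fjx1* call in 12.

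Regulators of cadherins form the last list: repressors of their transcription, proteases that cut them and enzymes that act on the junction. Of 18 genes 17 were tested, 5 rose and 0 fell, with a median log2 fold change of 0.16. That is 29.4% called, against 28.7% of all tested genes in either direction and 15.9% called higher. *Snai1*, which represses *Cdh1*, rose from 5.94 ± 0.834 to 13.0 ± 2.68 CPM (1.14, SE 0.16, edgeR adjusted p = 0.000755). *Twist1* rose from 5.34 ± 1.98 to 11.7 ± 2.76 CPM (1.14, 0.0115), and *Twist2* from 0.606 to 1.62 (1.42, 0.0168), the latter call being lost in 1 of 20 fits. *Twist2* reached the filter's level of 0.449 CPM in 3 WT and 4 *Nrg1GOF* libraries, too few to pass on WT alone. Its call, 1 of the 5 here, is therefore no evidence for the list. *Furin*, the protease that removes the propeptide of cadherins, rose from 123 ± 7.48 to 224 ± 17.5 CPM (0.86, SE 0.07, edgeR adjusted p = 3.94e-05). *Ptprj*, a receptor phosphatase of junctions, rose by 0.83 (0.00131). *Snai2* (0.43, 0.0619), *Zeb1*, *Zeb2* and the shedding proteases *Adam10* and *Adam17* did not pass.

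Marker genes of cell types differed between the groups in the following way. They are read against the 28.7% of all tested genes called, 15.9% higher and 12.8% lower. For *Cdh2*, *Cdh5* and *Cdh11* the ratio to 1 list each was tested, as given after the lists, and beyond that the part of the markers in the cadherin values was not tested. The tissue was labelled as ventricle. *Myl2*, the myosin light chain of ventricular muscle, had a mean TPM-like level of 11914 in WT and 10711 in *Nrg1GOF*, and *Myl7*, that of atrial muscle, 527 and 1329. Of the 10 cardiomyocyte genes, most of which atria also express, 6 fell and 0 rose, with a median log2 fold change of -0.43, and they summed to 40622 to 43823 CPM in WT and 30490 to 35986 in *Nrg1GOF*. Of these 6 calls 4 held in all 20 alternative fits, while *Myl3* was lost in 14 and *Tnnt2* in 6. The falls of *Cdh2* (-0.51) and *Cdh3* (-0.48) stood beside that median. All 11 fibroblast and mesenchyme genes rose, with a median of 0.93 and a sum of 4118 to 5616 CPM in WT and 7670 to 9849 in *Nrg1GOF*, beside *Cdh11* at 0.72. Of 14 endothelial and endocardial genes 5 rose and 1 fell, with a median of 0.04, beside *Cdh5* at -0.04. The fall was that of *Cldn5*, a tight junction gene of vessels, by 0.83, and *Emcn* was the highest of the rises at 0.67. Of 12 epicardial genes 8 rose and 1 fell (median 0.66), of 10 genes listed as atrial 7 rose and 0 fell (0.81), of 9 mural and smooth muscle genes 3 rose and 3 fell (-0.19), and all 8 macrophage genes rose (0.99). The calls did not all hold in every alternative fit: 5 of the 6 endothelial, 6 of the 9 epicardial, 5 of the 7 atrial, 3 of the 6 mural and 6 of the 8 macrophage calls did. All 11 fibroblast calls held. *Bmp10* is among the 7 of the atrial list and is also a gene of ventricular trabeculae. *Fgf12*, another of the 7, reached the filter's level of 0.449 CPM in 2 WT and 4 *Nrg1GOF* libraries, so its call is no evidence for the list. Of 6 lymphatic genes 1 rose and 1 fell (0.19), and of 10 red blood cell genes 0 were called (-0.24). The red blood cell list split by the WT pairs, with sums of 13061 and 12216 CPM in WT libraries 1 and 2. It summed to 5521 and 4432 CPM in WT libraries 3 and 4, and to 5452 to 8920 in *Nrg1GOF*.

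To set *Cdh2*, *Cdh5* and *Cdh11* against a cell type known to carry each, the mean log2 CPM of a marker list was taken from the member's log2 CPM. This measure was chosen after the values were seen. *Cdh2* relative to the cardiomyocyte list was -2.01 ± 0.135 in WT and -2.17 ± 0.051 in *Nrg1GOF*, a difference of -0.16 (exact permutation test over the 70 assignments, two-sided p = 0.0857, Benjamini-Hochberg 0.129 over 3 such ratios). *Cdh5* relative to the endothelial list was 2.36 ± 0.034 and 2.28 ± 0.017, a difference of -0.08 (exact permutation p = 0.0286, the smallest this design allows, adjusted 0.0857). *Cdh11* relative to the fibroblast list was -0.17 ± 0.13 and -0.41 ± 0.26, a difference of -0.24 (exact permutation p = 0.143, adjusted 0.143). With 4 libraries against 4, a single ratio whose groups do not overlap, as those of *Cdh5* did not, cannot go below 0.0857 after adjustment over 3. The test therefore cannot decide on *Cdh5*. It also treats the libraries as exchangeable, although the WT libraries form close pairs. Over the 8 libraries with genotype means taken out, as a description, *Cdh11* had an r of 0.47 with the fibroblast list, and over all the cell type lists its r ran from -0.85 (skeletal muscle precursors) to 0.90 (lymphatic), with 0.89 for red blood cells. *Cdh2* had 0.75 with the cardiomyocyte list and ran from -0.51 (skeletal muscle precursors) to 0.88 (endothelial). *Cdh5* had 0.42 with the endothelial list and ran from -0.88 (fibroblast) to 0.64 (skeletal muscle precursors). *Cdh20* had -0.04 with the cardiomyocyte list and ran from -0.72 (skeletal muscle precursors) to 0.83 (lymphatic). The lists share libraries and the WT pairs, and such an r does not place a gene in a cell type.

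**Figure D5:**
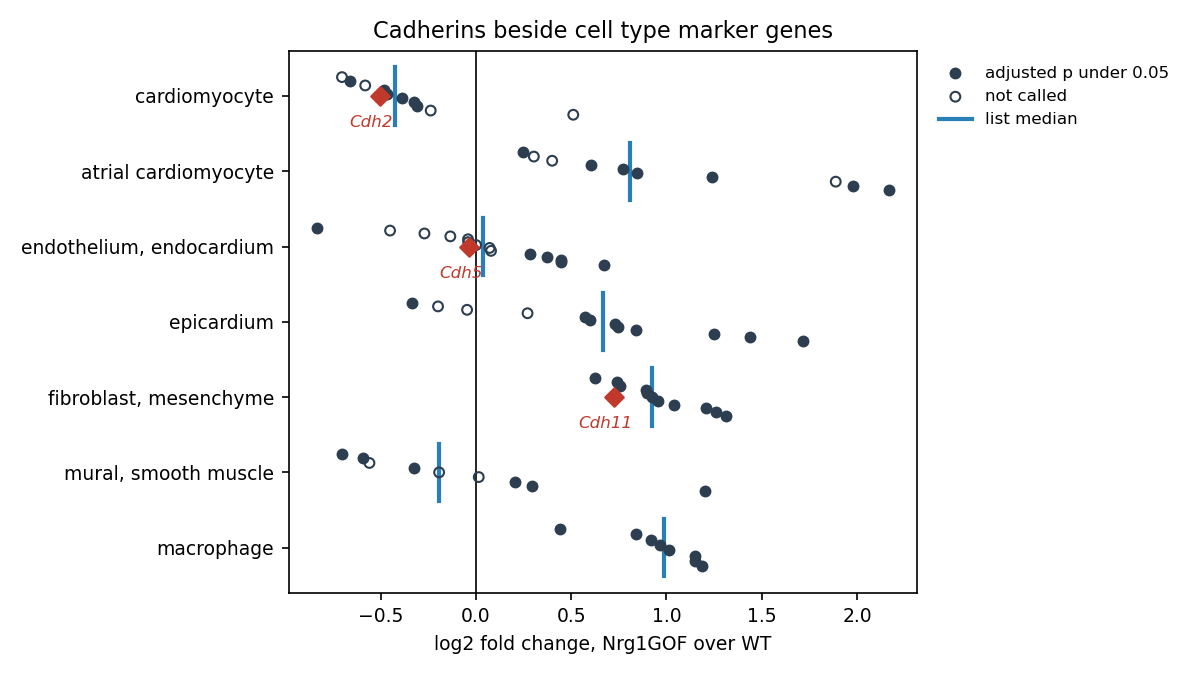
Log2 fold change (*Nrg1GOF* over WT, horizontal axis) of the tested genes of each cell type list, 1 point a gene, filled where the edgeR adjusted p was under 0.05, a blue line at each list's median and cadherins as red diamonds. *Cdh2* at -0.51 lies among the cardiomyocyte genes, *Cdh5* at -0.04 among the endothelial genes and *Cdh11* at 0.72 among the lower fibroblast genes.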

How the data were processed

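Poly(A) RNA from 8 ventricle samples (4 *Nrg1GOF*, 4 WT, each replicate being 1 ventricle sample with 100 ng of RNA as input) was sequenced by the authors as directional single reads of 60 bases. Reads were trimmed with cutadapt and the authors deposited RSEM 1.3.1 expected counts per gene (GRCm38, Ensembl 91 per the table's name). RSEM divides reads that match several genes. The strand setting of the counting is not given in the sources used here.

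Expected counts were rounded and tested with edgeR 4.0.16 in R 4.3.3: filterByExpr, TMM scaling, quasi-likelihood F-test with genotype alone, two-sided, Benjamini-Hochberg adjustment over 15580 genes. SE was taken as the log2 fold change over the root of F. Symbols were found for 53360 of 53465 identifiers. Overlaps and lengths came from a GRCm38 annotation and promoters from RefSeq. The fit was tested on simulated data. Alternatives changed the test (likelihood ratio, DESeq2 1.42.0, limma-voom 3.58.1), scaling, filter, block, libraries, depth and threshold. The labels do not say which embryos shared a litter, so p-values measure the spread between these samples.

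The members, marker lists and partner lists were chosen with earlier results of these data known. All members are named. So are the catenin, desmosomal cadherin and plaque genes that passed the filter, and, in every other list around the cadherins, up to 4 called genes with the largest and up to 4 with the smallest log2 fold change, whatever their sign. Regulators that did not pass, *Adipoq*, markers at 0 and a few cell type markers were named beside these.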

Additional observations from a re-analysis of the deposited data

Results flagged for a closer look

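The flags below come from the gap between the highest or lowest of 4 libraries and its nearest neighbour, divided by the range of the group. They were sought in 46 groups of 4, where chance alone would flag about 1 in 20. The level of *Cdh1* in *Nrg1GOF* library 4 was 0.375 CPM, where libraries 1 to 3 of the genotype lay between 0.182 and 0.214 CPM. The ratio was 0.833, just past Dixon's critical value for 4 samples. It rests on 3 counts. The total of *Nrg1GOF* library 4 was 8038641 counts, and libraries 1 to 3 held 20578081 to 22547833 (ratio 0.864).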

How the results depend on the processing

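Of 270 values recomputed under alternatives, 244 kept their direction and side of the threshold or, for counts, stayed within 1.5 times the main count (whatever its split into higher and lower), 12 were calls of *Cdh4* that were lost, 11 were counts that moved by more and 3 were signs that turned. The 244 include all 20 refits of *Cdh20*, and the recomputed counts of members called include its call. Since *Cdh20* was the reason for the choice of family, these are no support. *Cdh2*, *Cdh3* and *Cdh11* were called in all 20 fits, and *Cdh20* kept its sign, between -2.51 and -2.19. The turned signs were those of *Cdh5* (0.0069, library total alone) and *Cdh6* (0.0091 without *Nrg1GOF* replicate 4, 0.198 against WT libraries 3 and 4 only), none of them called. Leaving out 1 library put *Cdh6* between -0.25 and 0.0091. With the close WT pairs summed, calls over all genes went from 4467 to 2464 (1548 higher, 916 lower), those of the superfamily outside the members from 11 to 7 and those of the junction partners from 17 to 11. This fit had fewer samples. An adjusted p under 0.01 left 2535 calls over all genes and 3 regulators. A minimum log2 change of 1 left 724 calls over all genes, 0 of the 7 tested members beside *Cdh20*, 3 superfamily genes, 2 junction partners and 3 regulators. Among these were *Cdh19*, *Ctnna2* and *Twist2*, which would not have passed the filter on WT alone. Against WT libraries 3 and 4 only, 9 regulators were called in place of 5, and the cause was not tested. Leaving out 1 library gave 3239 to 4261 calls over all genes, 3 to 4 of the 7 members beside *Cdh20* (4 to 5 with it, its own call being no support), 9 to 12 superfamily genes, 12 to 15 junction partners and 5 to 6 regulators. Calls over all genes were 55.4% higher with TMM and 65.4% higher with library totals alone, which moved the median log2 fold change of all genes from -0.01 to 0.03. Replicate numbers gave no clear pairing: the same-number correlations of deviations ran from 0.05 to 0.199 with 2 of 4 over 0.1, and 2 libraries correlated best with their own number. All 16 correlations across the genotypes ran from -0.263 to 0.199. *Nrg1GOF* libraries 1 and 2 correlated positively with WT libraries 1 and 2 and negatively with WT libraries 3 and 4. *Nrg1GOF* library 3 did the reverse, and library 4 followed neither pattern. The cause of this was not tested. With the replicate block 4524 genes and 3 of the 7 members were called, and *Cdh4* was lost (0.0709). No listed gene that was called changed sign in any alternative fit it entered (18 fits for *Cdh19*, *Tubb3* and *Cldn3*, 20 for the others). Depth limits *Cdh1* and *Cdh15*, which had too few counts to test. Without the filter their log2 fold changes were 0.13 (SE 0.59) and 0.68 (SE 0.92).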
